A study of Mus musculus with 2 samples.

Results

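Endocardial nuclei come from the endothelium that lines the inner surface of the heart chambers. They were chosen in both libraries by marker RNA alone, and 1091 of the 26334 barcodes in the series met the rule, 487 in the CF-KI library and 604 in the Control library. Each barcode needed 200 or more genes and no more than 30% of its UMIs, the counted RNA molecules, from mitochondrial genes. It also had to hold UMIs of at least 3 of the 8 genes Npr3, Vwf, Nrg1, Tmem108, Cytl1, Bmx, Plvap and Plagl1. Barcodes were left out when they held 2 or more of the capillary genes Rgcc, Gpihbp1, Tcf15, Rbp7, Car4 and Btnl9, or 2 or more of the lymphatic genes Mmrn1, Reln and Ccl21a. They were also left out when Pdgfra, Col1a1, Csf1r, Ptprc, Msln and Pdgfrb, which mark fibroblasts, myeloid and other immune cells, mesothelium and mural cells, summed to more than 1 UMI. The levels of these 23 genes chose the nuclei, so they are described below without a test.

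The series holds nuclei of cardiac tissue from male C57Bl6/J mice aged 3.5 months, profiled with a 10x Genomics 3' kit as 1 library per genotype. Both genotypes carried Tcf21-MerCreMer, a Cre recombinase that tamoxifen switches on in Tcf21-expressing cells, chiefly fibroblasts of the heart, and both received tamoxifen. CF-KI was homozygous for the activating A350V allele of Nlrp3, the sensor protein of an inflammasome, and the Control had wild-type Nlrp3. According to the submitters the altered allele is silent in cells that do not express Cre, so by design endocardial cells are not the cells in which it was to be switched on. Whether it was on in these nuclei was not measured. The number of animals behind each library is not given in the sources used here, and every difference below is a difference of 2 libraries, with no replicate check. Intervals are at 95% and allow for counting error alone.

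The endocardium is in contact with the blood of the chambers and with the muscle beneath it. It is known for releasing signals such as neuregulin and endothelin to cardiomyocytes, for clearing natriuretic peptides through the receptor Npr3, for making von Willebrand factor, and for being the source of the valve cushions in the embryo. Transcription factors of the GATA, HAND, NFAT and FOXC families are active in it during heart formation, and Notch signals from it guide the growth of the muscle.

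The endocardial nuclei held 496751 non-mitochondrial UMIs for CF-KI and 694230 for Control, with a median of 854 and 917.5 UMIs per nucleus. Mitochondrial UMIs had a median share of 13.3% in the CF-KI nuclei and 4.0% in the Control ones, and a share of at most 5% was found in 4.31% and 58.9% of them. UMIs of 10 ventricular cardiomyocyte genes stood at a median of 74.0% of their whole-library level in CF-KI endocardial nuclei (from 58.0% for Ryr2 to 89.6% for Myl2) and at 49.8% in Control ones (from 29.3% for Ryr2 to 96.6% for Myl2). This is the measure of free RNA used here, RNA from burst cells that is captured with a nucleus. It differed less in the capillary nuclei used for comparison, at 50.6% and 50.9%, while lymphatic nuclei stood at 76.8% and 57.8%. The libraries shared 46 barcodes, none of them endocardial.

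Of the 8 marker genes of the rule, Npr3 was found in 66.5% of CF-KI and 66.4% of Control endocardial nuclei and in 5.06% and 3.55% of capillary nuclei (median depths of 1718 and 1496.5 UMIs), a contrast that the 2 rules fix in large part. Npr3, on chromosome 15 at 11839896 to 11907287 (GRCm38, GENCODE vM21), had 529 and 801 UMIs, or 1065 and 1154 CPM, which scales counts to the same total of non-mitochondrial UMIs in every class. Tmem108, a transmembrane protein gene on chromosome 9 at 103482947 to 103761837, stood at 1627 and 1533 CPM. Nrg1, which encodes the ligand neuregulin 1 and lies on chromosome 8 at 31814551 to 32884029, stood at 364.4 and 374.5 CPM. The log2 ratios of CF-KI over Control were -0.12 for Npr3, 0.09 for Tmem108 and -0.04 for Nrg1. Bmx, Plvap and Plagl1 had log2 ratios of -0.07, 0.15 and 0.09.

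Vwf and Cytl1 had the lowest log2 ratios among the 8 markers. Vwf, the gene of von Willebrand factor on chromosome 6 at 125546774 to 125686679, had 449 CF-KI UMIs (904 CPM) and 1025 Control UMIs (1476 CPM), a log2 ratio of -0.71. It was found in 57.3% of CF-KI and 73.0% of Control endocardial nuclei. Cytl1, which encodes a small secreted protein, had 233 and 508 UMIs, or 469 and 732 CPM, with a log2 ratio of -0.64. Because barcodes with these RNAs pass the rule more easily, the number of nuclei chosen depends on them.

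Endocardial nuclei were a smaller share of the barcodes in CF-KI than in the Control in each of the settings tried. They made up 3.87% of kept barcodes in CF-KI (3.54 to 4.22) and 5.54% in the Control (5.12 to 5.99), where kept barcodes are those within the limits on genes and mitochondrial RNA. The difference was -1.68 percentage points (-2.23 to -1.13). Among the 1174 and 981 barcodes chosen as endocardial, capillary or lymphatic endothelium, the endocardial share was 41.5% for CF-KI and 61.6% for Control, a difference of -20.1 points (-24.3 to -15.8). Capillary nuclei had at least 3 of the 6 capillary genes and fewer than 2 endocardial ones, lymphatic nuclei at least 2 of the 3 lymphatic genes, fewer than 3 endocardial and fewer than 2 capillary ones, with the other limits unchanged. These mirror rules gave 573 and 310 capillary nuclei and 114 and 67 lymphatic nuclei. Without Vwf and Cytl1 among the markers the difference in the share of kept barcodes was -0.593 points (-0.996 to -0.196). With every barcode thinned to 500 UMIs it was -1.07 points (-1.47 to -0.677), and with a limit of 5% mitochondrial UMIs -4.28 points (-4.94 to -3.57), from 21 and 356 nuclei. Fewer endocardial cells and less marker RNA per nucleus cannot be told apart in these shares. The endothelial share also depends on the other nuclei it is taken over. Capillary and lymphatic nuclei were more numerous in CF-KI (573 and 114) than in the Control (310 and 67).

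Just inside the rule, 293 CF-KI and 332 Control nuclei held exactly 3 of the 8 markers, and just outside it 588 and 426 barcodes that met the other limits held 2. The 19 pan-endothelial genes, such as Pecam1 and Cdh5, summed to 5826 and 7695 CPM in nuclei with 3 markers, to 6603 and 7644 CPM in those with 4 or more, and to 4859 and 5150 CPM in barcodes with 2. In barcodes with none of the markers the sum was 1202 and 683 CPM. Barcodes with 2 markers therefore held much endothelial RNA, and they were the only marker number from 2 to 7 at which CF-KI had the larger share of kept barcodes, 4.67% against 3.91%.

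**Figure D1:**
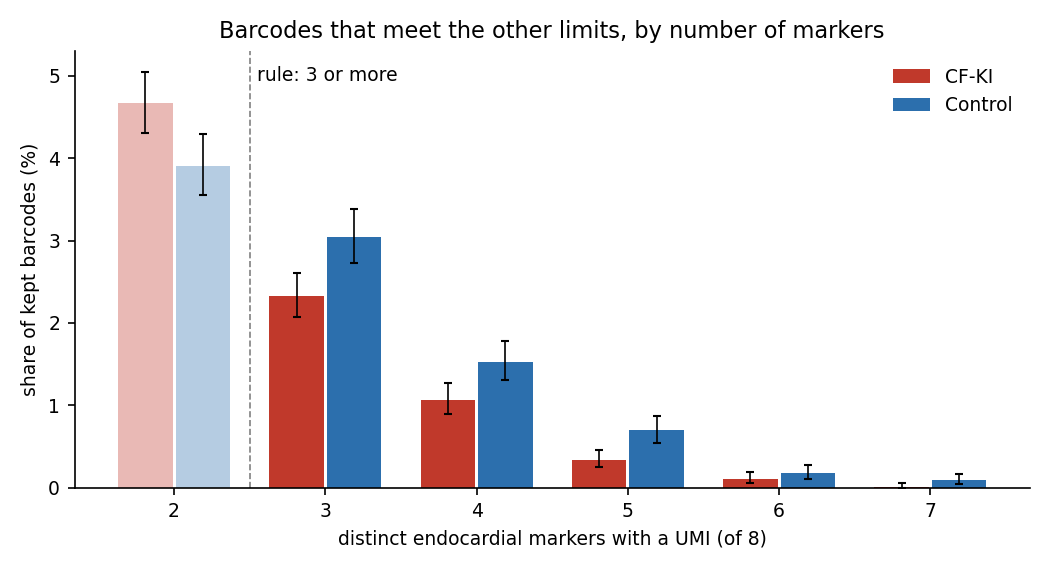
Share of kept barcodes (vertical axis, percent) that held 2 to 7 of the 8 endocardial markers (horizontal axis) and met the other limits of the rule, with exact binomial intervals as black lines. Pale bars at 2 markers lie outside the rule, and there CF-KI is higher, whereas the Control bars are higher at 3 to 7 markers.

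Genes the rule did not use set the endocardial nuclei apart from capillary nuclei in both libraries. Of 18 endocardial identity genes, 13 had at least 20 UMIs in endocardial plus capillary nuclei of each library, and 10 of the 13 were at least 2-fold above the capillary level in both libraries and none at least 2-fold below. Among all 7683 genes with that many UMIs, 12.3% were at least 2-fold above and 14.1% at least 2-fold below. With the higher minimum of 100 UMIs used for the genes named next, 2211 genes were compared, and the shares were 10.0% and 24.0%. The list's median log2 ratio, endocardial over capillary, was 2.87 for CF-KI and 3.66 for Control. Endothelial genes of all beds did not follow it: none of the 19 pan-endothelial genes was 2-fold above capillary nuclei in both libraries and 10 were 2-fold below, among them the VEGF receptor gene Kdr, at 119 and 112 CPM in endocardial nuclei against 1611 and 1705 CPM in capillary ones.

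Hmcn1, on chromosome 1 at 150562524 to 150993435, encodes the matrix protein hemicentin 1. It had 927 UMIs in CF-KI endocardial nuclei and 1321 in Control ones, or 1866 and 1903 CPM, against 84.8 and 88.7 CPM in capillary nuclei. Its log2 ratio over capillary nuclei was 4.46 and 4.42, and it also stood at 656 and 1169 CPM in lymphatic nuclei. Cdh11, an adhesion gene of the cadherin family on chromosome 8 at 102632095 to 102785642, had 310 and 288 CPM in endocardial nuclei against 10.3 and 13.5 CPM in capillary and 15.4 and 41.2 CPM in lymphatic ones. Hmcn1 thus marked endocardial and lymphatic nuclei, whereas Cdh11 was low in both of the other classes. Ctsh (the protease cathepsin H), Pdlim3 (an actin-associated protein), Pkhd1l1, Col4a4 (a collagen IV chain) and Ptgs1 (cyclooxygenase 1) had log2 ratios over capillary nuclei between 3.62 and 4.80 in each library.

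Transcription factor genes were part of the pattern. Foxc1, a forkhead factor gene, had 177 and 279 CPM in endocardial nuclei and 20.7 and 17.4 CPM in capillary ones. Meis2, a homeobox factor gene, had 588 and 547 CPM against 52.7 and 28.9 CPM. Gata6 had log2 ratios over capillary nuclei of 2.72 for CF-KI and 2.75 for Control, and Hand2, a basic helix-loop-helix factor gene, of 3.25 and 2.88. Nfatc1, known from the endocardium of forming valves, was nearer the capillary level, with log2 ratios of 0.70 and 0.90 from 20 and 40 UMIs.

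Hand2 and its partner Hand2os1 are shown with sequence because their annotated RefSeq starts adjoin and the 2 genes differed in how they compared between the libraries. Hand2os1, a long noncoding RNA gene, had 536 and 793 UMIs (1079 and 1142 CPM) in endocardial nuclei and 64.1 and 52.1 CPM in capillary ones. The windows below run from 250 bases before to 50 bases after the annotated start in RefSeq (GRCm38.p6), with Hand2 at chr8:57320733-57321032 on the + strand and Hand2os1 at chr8:57320810-57321109 on the - strand. Capitals mark the 223 bases that lie in both windows, from 57320810 to 57321032, and the 2 starts are 124 bases apart.
Hand2: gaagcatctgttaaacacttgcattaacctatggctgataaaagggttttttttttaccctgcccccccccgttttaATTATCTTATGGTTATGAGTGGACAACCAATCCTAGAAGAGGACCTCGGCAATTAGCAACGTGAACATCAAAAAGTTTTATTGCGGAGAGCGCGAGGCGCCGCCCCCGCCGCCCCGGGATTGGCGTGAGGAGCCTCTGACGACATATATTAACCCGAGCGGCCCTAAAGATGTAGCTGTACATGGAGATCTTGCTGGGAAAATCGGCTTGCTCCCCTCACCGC
Hand2os1: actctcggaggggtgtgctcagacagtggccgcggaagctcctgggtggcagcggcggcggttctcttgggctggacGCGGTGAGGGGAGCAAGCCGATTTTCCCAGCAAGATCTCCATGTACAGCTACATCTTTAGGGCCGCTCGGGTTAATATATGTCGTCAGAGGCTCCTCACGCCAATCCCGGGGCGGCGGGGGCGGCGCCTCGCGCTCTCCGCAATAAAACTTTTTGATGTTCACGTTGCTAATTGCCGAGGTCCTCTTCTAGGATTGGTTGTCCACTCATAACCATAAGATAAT
The Hand2 window holds 2 matches to GATAA on either strand, a letter run bound by GATA factors, and the Hand2os1 window holds 1. Of all 32544 promoter windows of this length, 25.3% hold at least 1 such match. The Hand2 window also holds 2 matches to CANNTG, the E-box, which 72.3% of windows hold, and the Hand2os1 window holds none. These are letter matches, not measured sites.

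Hand2 was higher in CF-KI and Hand2os1 was not. Hand2 had 127 UMIs in CF-KI endocardial nuclei and 89 in Control ones, or 256 and 128 CPM, with a log2 ratio of 1.00 (0.59 to 1.40). The ratio for Hand2os1 was -0.08 (-0.24 to 0.08). In all barcodes of the library Hand2 had a CF-KI level of 144 CPM and a Control level of 58.7 CPM, a log2 ratio of 1.29, so the ratio over the whole library was larger than in the endocardial nuclei, and after subtraction of free RNA the endocardial ratio was 1.54. In capillary nuclei the log2 ratio of Hand2 was 0.63 (-0.51 to 1.91) from 26 and 9 UMIs. GENCODE places the Hand2os1 gene (chromosome 8, 57281117 to 57324233) over most of Hand2 (57320983 to 57324633) on the opposite strand. The outermost GENCODE start of Hand2os1 is thus at 57324233, outside the RefSeq window shown for it. Whether the counting used strand is not given in the sources used here, so reads of the 2 genes may not be fully separated.

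**Figure D2:**
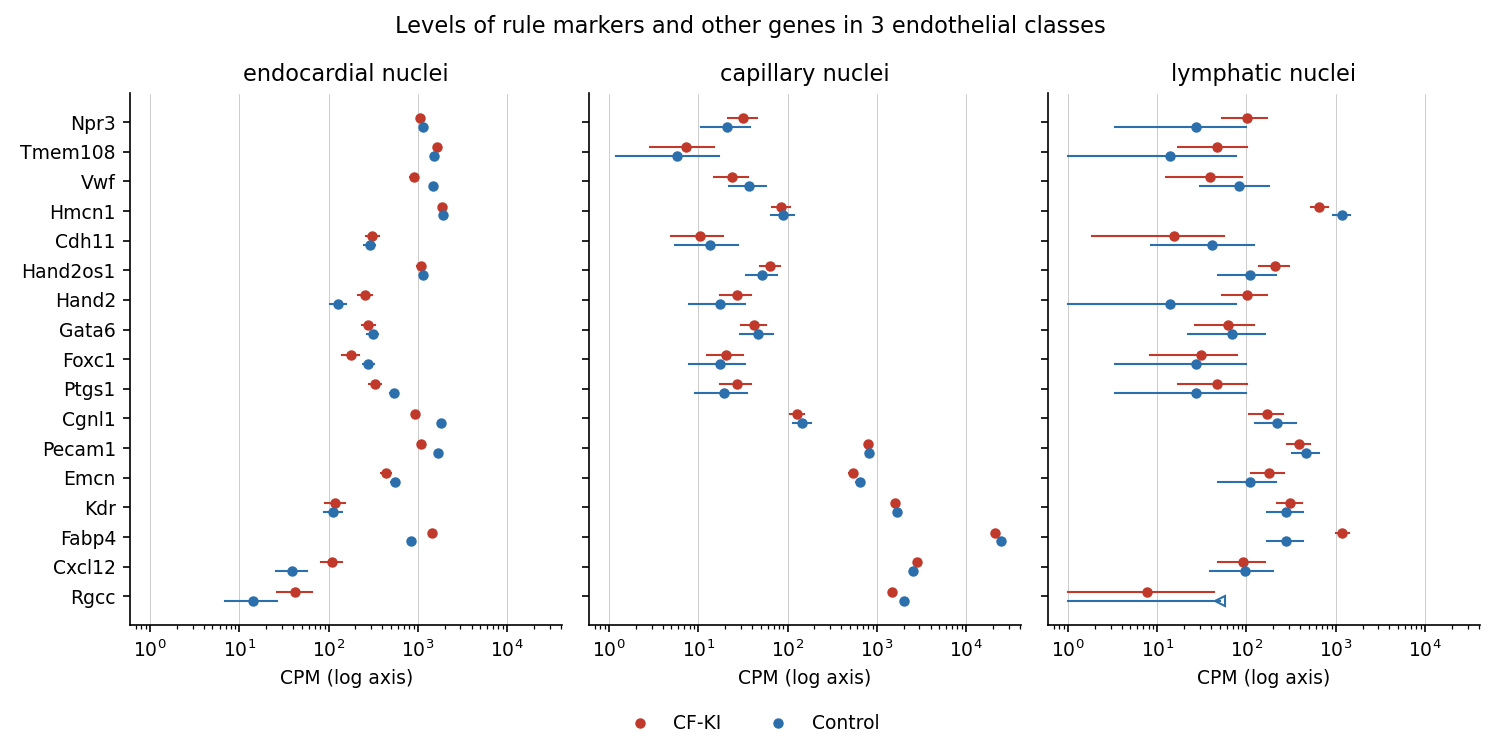
CPM on a log axis for 17 genes in endocardial, capillary and lymphatic nuclei, with CF-KI in red and Control in blue, and lines for Poisson intervals. An open triangle marks the upper limit of a count of 0. Cdh11, Hand2os1 and Hand2 are higher in endocardial than in capillary nuclei of both libraries, and Fabp4 and Cxcl12 are lower. Npr3, Tmem108 and Vwf are also higher and Rgcc is lower, but these are genes of the rules that chose the nuclei, which fix the contrast in large part.

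Genes known from capillaries and from fatty acid transport were among the lowest in endocardial nuclei. C1qtnf9, which encodes a secreted relative of adiponectin, had 2 and 4 UMIs in endocardial nuclei against 347 and 266 in capillary ones, with a log2 ratio of -6.48 in each library. Cxcl12, a chemokine gene, stood at 109 and 38.9 CPM against 2796 and 2516 CPM. Fabp4, a fatty acid binding protein gene, stood at 1453 and 834 CPM against 21085 and 24321 CPM, and Rgs5 at 165 and 30.2 CPM against 3402 and 2682 CPM. Ly6c1, Depp1, Rsad2, Rflnb, Gm12002, Ctnnbip1, AW112010, Dach1, Aqp7, Cd300lg and Ablim3 completed the 15 lowest, all with log2 ratios below -3 in both libraries. Of 15 genes of capillaries and lipid uptake, 13 were compared and 11 were at least 2-fold below capillary nuclei in both libraries, where 14.1% of all genes with that many UMIs were.

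**Figure D3:**
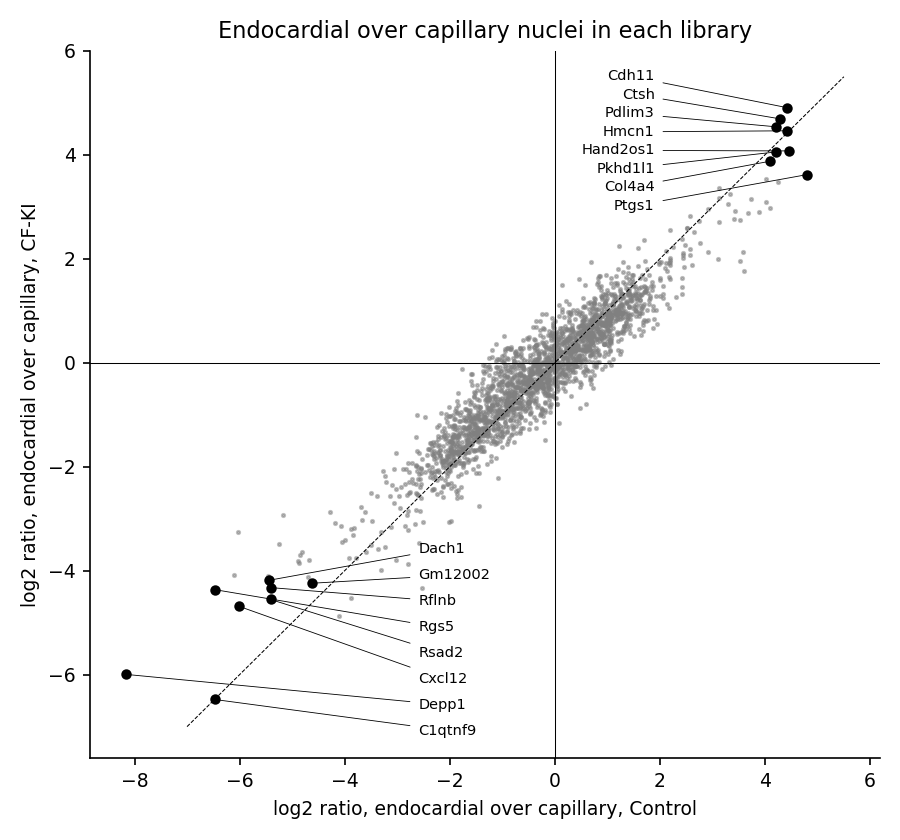
Each grey point is a gene with at least 100 UMIs in endocardial plus capillary nuclei of each library, with its log2 ratio of endocardial over capillary nuclei in the Control (horizontal) and in CF-KI (vertical), and the dashed line marks equal ratios. The 8 highest and 8 lowest genes are named, and Hmcn1 (4.42 and 4.46) lies close to the line.

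Against lymphatic nuclei 847 genes could be compared, of which 6.38% were at least 2-fold above and 2.48% at least 2-fold below in both libraries. Cd93, a cell surface receptor gene, had 220 and 345 UMIs in endocardial nuclei and 5 and 2 in lymphatic ones, with log2 ratios of 3.52 and 4.18. Flt1, a VEGF receptor gene, had log2 ratios of 4.34 and 3.44, and Smad7, an inhibitor of TGF-beta signals, of 3.70 and 3.48. Vcam1, Heg1, Rps6ka2, Col4a4 and Ptgs1 were the other genes at the top. Lyve1, a hyaluronan receptor gene of lymphatic vessels (-3.08 and -3.16), Maf (-4.34 and -3.86), Nrp2 (-2.91 and -3.48) and Nr2f2 (-1.39 and -1.83) were lower in endocardial nuclei.

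Markers of other cell types were measured in the endocardial nuclei as a check of the label. The 10 ventricular cardiomyocyte genes were all detected and summed to 26677 CPM for CF-KI and 11015 CPM for Control, a log2 ratio of 1.28. The 8 fibroblast genes were all detected, at 4682 and 4173 CPM, and the 8 macrophage genes at 439 and 470 CPM. Both sums were lower in capillary nuclei, at 2316 and 2003 CPM and at 238 and 305 CPM. In lymphatic nuclei the fibroblast genes stood at 3602 and 3630 CPM. The 6 pericyte genes summed to 346 and 122 CPM and the 5 erythroid genes to 1780 and 779 CPM, with Alas2 at 0 in CF-KI. These sums were higher in capillary nuclei, at 3808 and 2948 CPM and at 3242 and 959 CPM. Of 5 airway epithelial genes none had a UMI in CF-KI endocardial nuclei, and 4 summed to 2237 CPM in the Control, where Sftpc was at 0. The 4 lymphocyte genes had 2 and 9 UMIs in all, with Cd3e at 0 in both libraries, Ms4a1 and Skap1 at 0 in CF-KI and Cd79a at 0 in the Control. Scrublet called 25 of the CF-KI endocardial nuclei doublets (5.13%), but it called none of the 11196 Control barcodes it scored, so it did not work there and doublets were not removed.

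Clustering of the 1091 nuclei split them mainly by library. A group of 503 nuclei held 80.8% of the Control and 3.08% of the CF-KI nuclei and was led by airway genes (Ltf, Bpifa1, Bpifb1). Another of 405 nuclei held 79.5% of the CF-KI and 2.98% of the Control nuclei and was led by Cox7a1, Tesc and Atp5mpl. Neither was read as a cell type. Groups of 64, 58 and 13 nuclei were led by macrophage and mesothelial genes (Cd163, F13a1, Muc16), by cardiomyocyte and adipocyte genes (Plin1, Trim55) and by platelet genes (Itga2b, Ppbp, Pf4). These 135 nuclei with genes of another type were 67 of the CF-KI and 68 of the Control nuclei, and values without them are given for the genes and lists they moved most.

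The remaining group was small and stayed unnamed. It held 18 CF-KI nuclei (3.70%, 2.20 to 5.78) and 30 Control nuclei (4.97%, 3.38 to 7.01), with a median of 2124.5 UMIs, and its leading genes included Nppc, Adamts8, Nts, Hapln1, Wnt9b, Ptn and Inhba. Nppc encodes a natriuretic peptide, Hapln1 a protein that links hyaluronan to matrix, and Wnt9b a Wnt ligand. Several of these rested on few nuclei: Nppc UMIs came from 2 CF-KI and 1 Control nuclei, and the 35 Control UMIs of Adamts8 from 3. Vim, the gene of the filament protein vimentin, was broader, with UMIs in 16 of 18 CF-KI and 29 of 30 Control nuclei, at 3040 and 5111 CPM against 576 and 485 CPM in the other endocardial nuclei. Clu had UMIs in 13 and 24 nuclei, at 843 and 2060 CPM against 160 and 238 CPM. In the same group Npr3 had a level of 903 CPM (CF-KI) and 245 CPM (Control), against 1077 and 1268 CPM in the rest.

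Between the libraries, the genes furthest above the Control in CF-KI endocardial nuclei included genes of cardiomyocytes and of the mitochondrial respiratory chain. Of 2208 genes with at least 100 UMIs outside the rule, 6.75% were at least 2-fold higher and 1.13% at least 2-fold lower in CF-KI. Myl2, the ventricular myosin light chain gene, had 1614 and 575 UMIs (3249 and 828 CPM), a log2 ratio of 1.97 (1.83 to 2.11). Uqcrb, a subunit gene of respiratory complex III, had 274 and 88 UMIs with a ratio of 2.12 (1.77 to 2.48). Atp5mpl, Cox7a1, Fabp3, Cox6a2, Mb, Cryab, Myl3, Tnni3, Ndufa4, Ndufb10, Actc1, Ckmt2 and Rgs5 made up the rest of the 15 highest, with log2 ratios from 1.71 for Actc1 to 2.54 for Atp5mpl. The free RNA share of cardiomyocyte genes was also higher in these CF-KI nuclei, at 74.0% against 49.8%. In all barcodes the log2 ratio of Myl2 was 2.08 and that of Uqcrb 1.86, and after subtraction of free RNA the endocardial ratios were 1.44 and 2.58, although Myl2 is one of the 10 genes that set the amount subtracted. Rgs5 had no UMIs left in either library after subtraction, and Atp5mpl kept 27.3 CF-KI UMIs and 0.533 Control UMIs. The other 13 of these genes had ratios from 1.23 for Actc1 to 2.74 for Ndufb10.

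Secretory genes of airway epithelium were among the furthest below the Control. Scgb1a1, a secretoglobin gene, had no CF-KI UMI (0) and 718 Control UMIs, at least 171-fold lower against a floor of 3 UMIs over the group. Bpifa1 had 0 and 644 UMIs, at least 154-fold lower, and Scgb3a2 had 0 and 125, at least 29.8-fold lower. Wfdc2 had 4 and 101 UMIs. In Control capillary nuclei Scgb1a1 stood at 311 CPM and in lymphatic ones at 454 CPM, against 1034 CPM in endocardial nuclei, so airway RNA was in all 3 endothelial classes of that library.

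Apart from the airway genes, the 15 lowest in CF-KI had varied roles. Cgnl1, which encodes the junction protein paracingulin and lies on chromosome 9 at 71626509 to 71771602, had 467 CF-KI and 1276 Control UMIs, or 940 and 1838 CPM. Its log2 ratio was -0.97 (-1.12 to -0.81), against -0.17 (-0.60 to 0.26) in capillary nuclei and -0.70 in all barcodes. Cgnl1 is itself enriched in endocardium, with log2 ratios over capillary nuclei of 2.87 and 3.67. After subtraction of free RNA its ratio was -0.10, where the median of all genes was 0.24.

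Fn1, the fibronectin gene on chromosome 1 at 71585520 to 71653200, had 59 and 191 UMIs (119 and 275 CPM), a log2 ratio of -1.21 (-1.66 to -0.78). In capillary nuclei it stood at 74.4 and 75.2 CPM with a ratio of -0.02 (-0.60 to 0.59). Clu, which encodes the secreted chaperone clusterin, had 102 and 307 UMIs and a ratio of -1.11 (-1.44 to -0.78), which was -0.58 without the group of 48 nuclei led by Nppc, since 160 of its Control UMIs lay there. Id2, an inhibitor of basic helix-loop-helix factors, had 39 and 130 UMIs with a ratio of -1.25 (-1.81 to -0.73). Fn1, Clu and Id2 were lower in CF-KI after subtraction of free RNA too, with ratios of -1.22, -0.72 and -0.63.

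Other genes at the low end were Cdc42ep3, an effector of the GTPase Cdc42 (71 and 215 UMIs, log2 ratio -1.12), Xdh, the xanthine dehydrogenase gene (106 and 301 UMIs, -1.02), and Cd38, an enzyme that consumes NAD (23 and 82 UMIs, -1.35). Cuedc1 (-1.25), Rgs3 (-0.97) and Gm47283 (-1.34) were also among the 15 lowest. Car3, with 39 and 123 UMIs and a ratio of -1.17, was the exception in one respect: without the 135 nuclei with genes of another type the ratio was 0.01 (-1.23 to 1.19). The ratios of Cgnl1, Fn1, Cdc42ep3, Xdh and Cd38 without those nuclei were between -0.87 and -1.32.

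**Figure D4:**
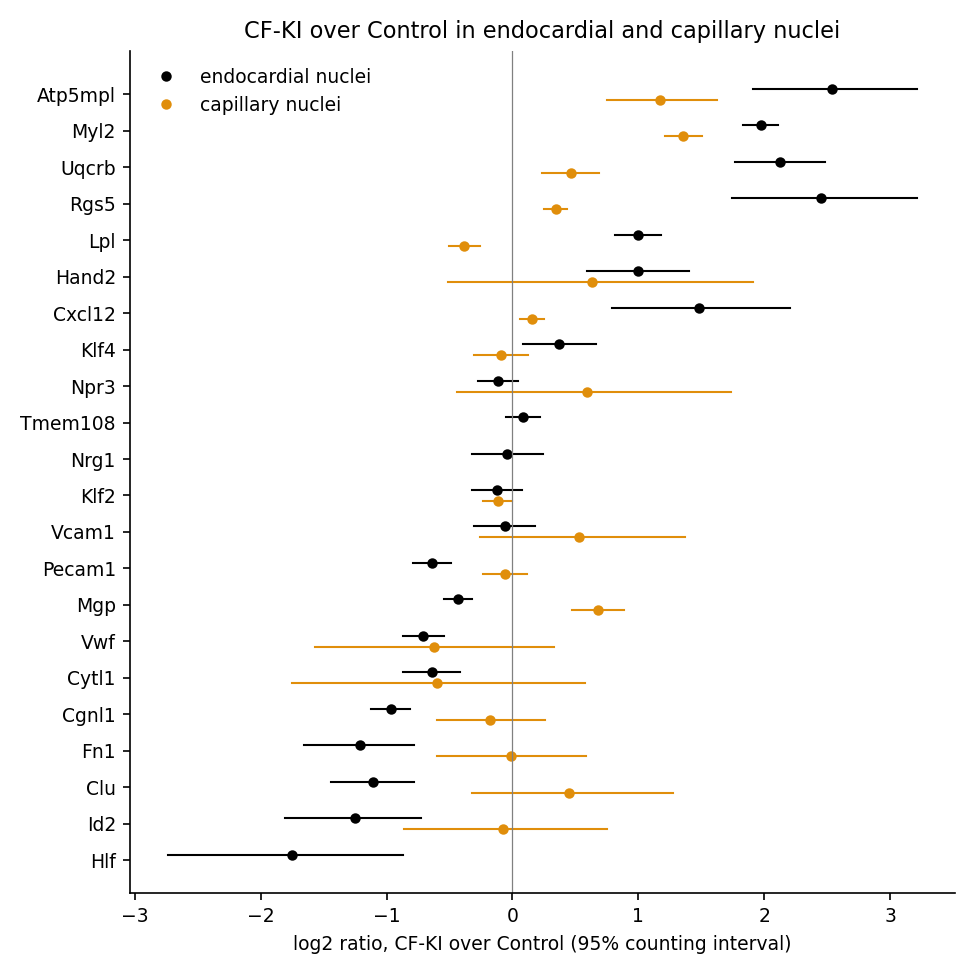
Log2 ratio of CF-KI over Control (horizontal axis) with counting intervals for 22 genes in endocardial (black) and capillary (orange) nuclei, the latter shown where they had at least 20 UMIs. Cgnl1, Fn1, Clu and Id2 are below 0 in endocardial nuclei while their capillary intervals span 0, and Lpl and Mgp lie on opposite sides of 0 in the 2 classes.

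Some endocardial differences were not those of the capillary nuclei. Over 1706 genes compared in both classes, 3.17% had an endocardial log2 ratio at least 1 higher than the capillary one and 1.23% at least 1 lower, and the median difference was 0.04. Lpl, the lipoprotein lipase gene, had 595 and 416 UMIs in endocardial nuclei (1198 and 599 CPM) and 1387 and 1810 CPM in capillary ones. Its ratio was 1.00 (0.82 to 1.18) in endocardial and -0.38 (-0.50 to -0.26) in capillary nuclei. Uqcrb, Rgs5, Ndufc2, Ndufa4, Cox6b1, Ndufb10, Cox4i1, Atp5f1 and Uqcrc2 were also higher in this sense, by 1.12 for Cox4i1 to 2.10 for Rgs5. Rgs5 is one of the pericyte genes measured here and had 82 and 21 endocardial UMIs. After subtraction of free RNA no UMIs of Lpl or Rgs5 were left in either library, and the endocardial ratio of Ndufc2 was -0.01. The other genes named had ratios from 1.04 for Cox4i1 to 2.74 for Ndufb10. The free RNA measure was higher in CF-KI in endocardial nuclei (74.0% and 49.8%) and close in capillary ones (50.6% and 50.9%).

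On the lower side, 3 of the genes encode secreted or matrix proteins (Mgp, Igfbp5 and Fn1). Mgp, which encodes the calcification inhibitor matrix Gla protein, stood at 2021 CPM in CF-KI and 2724 CPM in Control endocardial nuclei (log2 ratio -0.43, -0.54 to -0.32, but -0.16 without the group of 48 nuclei led by Nppc), and at 811 and 507 CPM in capillary ones (0.68, 0.47 to 0.88). Igfbp5, an IGF binding protein gene, stood at 777 and 1193 CPM in endocardial nuclei (-0.62) and at 195 and 139 CPM in capillary ones (0.49). Vezf1, Mrpl52, Cdc42ep3, Cd38, Fn1, Baz1b and Med13l were also among the 10 lowest, with endocardial minus capillary differences from -1.02 for Baz1b to -1.40 for Vezf1.

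Most gene lists were a little lower in CF-KI, and their standing depended on free RNA. Over the 8113 genes with at least 20 UMIs the median log2 ratio of CF-KI over Control was -0.02, and 6.83% were at least 2-fold higher and 4.55% at least 2-fold lower. Of 17 endocardial identity genes tested, 4 were higher and 13 lower, with a median of -0.50 and 3 at least 2-fold lower (Wnt9b, Adgrg6 and Hapln1, with 4 and 28, 15 and 43, and 8 and 23 UMIs). The group of 48 nuclei held 21 of the 28 Control UMIs of Wnt9b and 21 of the 23 of Hapln1, the latter in 4 nuclei. Without that group Wnt9b had no CF-KI UMI and the ratio of Hapln1 turned from -1.04 to 1.00. Ptgs1 had 164 and 374 UMIs and a log2 ratio of -0.71 (-0.98 to -0.44), Foxc1 88 and 194 UMIs, a ratio of -0.66 (-1.04 to -0.29), and Hmcn1, Cdh11 and Gata6 had intervals that spanned 0. The ratios of Ptgs1 and Foxc1 turned to 0.15 and 0.17 after subtraction of free RNA. After that subtraction the median of all genes moved from -0.02 to 0.24 and that of the identity list to 0.15, so relative to all genes the list stood at -0.48 before and -0.10 after. Genes with no more than 3 UMIs left in both libraries, 484 of the 8113, were given no ratio after subtraction.

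Pan-endothelial genes were lower for 16 of 19, with a median of -0.28. Pecam1, an adhesion gene of all endothelium, had 543 and 1180 UMIs (1093 and 1700 CPM), a ratio of -0.64 (-0.79 to -0.49) in endocardial and -0.06 in capillary nuclei, and 0.14 in endocardial nuclei after subtraction of free RNA. Egfl7 had 689 and 961 UMIs and a ratio of 0.00 (-0.14 to 0.15). Robo4, Cldn5 and Sox17 were at least 2-fold lower, where 4.55% of all genes were. Without the group of 48 nuclei, however, the ratio of Cldn5 went from -1.28 to -0.17 and that of Sox17 from -1.60 to -0.59. In that group 7 Control nuclei held 47 of the 68 Control UMIs of Cldn5. The same list had a median of -0.28 in capillary nuclei.

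Among ligands to the muscle and vessel wall, 5 of 23 tested were higher and 18 lower, with a median of -0.47 against -0.09 in capillary nuclei. Igf2 had 32 and 96 UMIs, a ratio of -1.10 (-1.73 to -0.51), and Inhbb, an activin subunit gene, 4 and 20. Nos3, the endothelial nitric oxide synthase gene, had 57 and 136 UMIs, a ratio of -0.77 (-1.24 to -0.32), which was -0.10 after subtraction of free RNA. Edn1, the endothelin 1 gene, had 24 and 42 UMIs with a ratio of -0.32, and Vegfa 84 and 82 with a ratio of 0.52, which was -0.05 without the 135 nuclei with genes of another type. Relative to all genes the ligand list stood at -0.44, and at -0.26 after subtraction of free RNA.

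Notch genes had a median of -0.12, with 5 of 12 tested higher and 7 lower. The receptor gene Notch1 had 144 and 223 UMIs and a ratio of -0.15. Hey1, a target of Notch, had 1 CF-KI UMI and 27 Control UMIs, a ratio of -4.27 (-9.63 to -1.67), while in all barcodes it stood at 10.6 and 9.995 CPM. The target gene Hes1 had 77 and 115 UMIs and a ratio of -0.10, and the ligand gene Dll1 had 9 and 30.

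Genes of flow sensing were lower for 13 of 18, with a median of -0.14. None was 2-fold apart, where 6.83% of all genes were at least 2-fold higher and 4.55% at least 2-fold lower. Klf2, a factor gene switched on by flow, had 340 and 517 UMIs and a ratio of -0.12 (-0.32 to 0.08), and Klf4 had 190 and 205 UMIs and a ratio of 0.37 (0.08 to 0.67). Heg1, a receptor gene of the cerebral cavernous malformation pathway, had 367 and 743 UMIs and a ratio of -0.53 (-0.72 to -0.35), beside -0.67 in capillary nuclei and 0.24 after subtraction of free RNA.

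Endothelial activation genes, which answer interleukin 1 and NF-kB, were spread on both sides of 0. They had a median of -0.20, with 6 of 17 higher, 11 lower and 2 at least 2-fold higher, where 6.83% of all genes were. The median was -0.01 without the 135 nuclei with genes of another type. Vcam1 had 233 and 340 UMIs (-0.06), Icam1 43 and 71 (-0.24) and Nfkbia 101 and 110 (0.36). Cxcl12 (54 and 27 UMIs, 1.48) and Rel (16 and 11 UMIs, 1.02) were the 2 higher genes, and Cxcl12 was also higher in all barcodes, by 1.38. After subtraction of free RNA at most 3 UMIs of Cxcl12 were left in either library, so it had no ratio there. Il1r1, the interleukin 1 receptor gene, had 20 and 34 UMIs. Interferon response genes had a median of -0.14 (7 of 15 higher and 8 lower), with Ifit1 at 1 and 27 UMIs. Of 14 inflammasome genes only 6 had 20 UMIs, and Nlrp3 itself had 1 UMI in CF-KI endocardial nuclei and 0 in the Control. For a Control count of 0 the exact Poisson upper limit is 5.31 CPM, and the floor of 3 UMIs is 4.32 CPM. Whether the altered allele was present cannot be read from 3' counts.

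Matrix genes were lower for 19 of 27, with a median of -0.18 against -0.32 in capillary nuclei. The elastin gene Eln had 105 and 268 UMIs, a ratio of -0.87 (-1.21 to -0.54) that was -0.21 after subtraction of free RNA, and the collagen gene Col4a2 had 66 and 50 UMIs, a ratio of 0.88. Mesenchymal transition genes, which rise when endocardium forms valve cushions, had a median of 0.01, with 5 of 10 higher and 5 lower. Acta2 (16 and 6 UMIs) and Cdh2 were at least 2-fold higher, and Cdh2 (47 and 31 UMIs) had a ratio of 1.08, but 0.72 (-0.32 to 1.77) without the 135 nuclei with genes of another type. Immediate early and heat shock genes, which respond to handling, had a median of 0.02. Genes of receptors and effectors of TGF-beta and BMP signals had a median of -0.08, with Id1 at 0.39, Id3 at -0.60 and Smad7 at -0.40.

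Fat metabolism was the list furthest above all genes. Of 14 lipid and fasting genes tested, 12 were higher and 2 lower, with a median of 0.48 against -0.22 in capillary nuclei. Relative to all genes the list stood at 0.51, and at 0.36 after subtraction of free RNA, where 5 of the 14 had no ratio. Fabp3, the muscle fatty acid binding protein gene, had 614 and 221 UMIs, a ratio of 1.96, Cd36, a fatty acid transporter gene, 245 and 185, a ratio of 0.89 (0.61 to 1.17), and Fabp4 722 and 579, a ratio of 0.80 (0.64 to 0.96). In all barcodes the ratios of Fabp3, Cd36 and Fabp4 were 1.84, 1.15 and 1.05. Subtraction of free RNA left 135 CF-KI and 94.8 Control UMIs of Fabp3, a ratio of 1.94. For Cd36 and Fabp4 it left 0 CF-KI UMIs, against 65.1 and 46.7 Control ones. These remainders depend on the share subtracted, a median over 10 genes. Among those genes the Control endocardial share varied between 29.3% (Ryr2) and 96.6% (Myl2). No fold difference or direction was therefore read from what was left of Cd36 and Fabp4. Lpl had a ratio of 0.27 in all barcodes and no UMIs left in either library after subtraction.

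**Figure D5:**
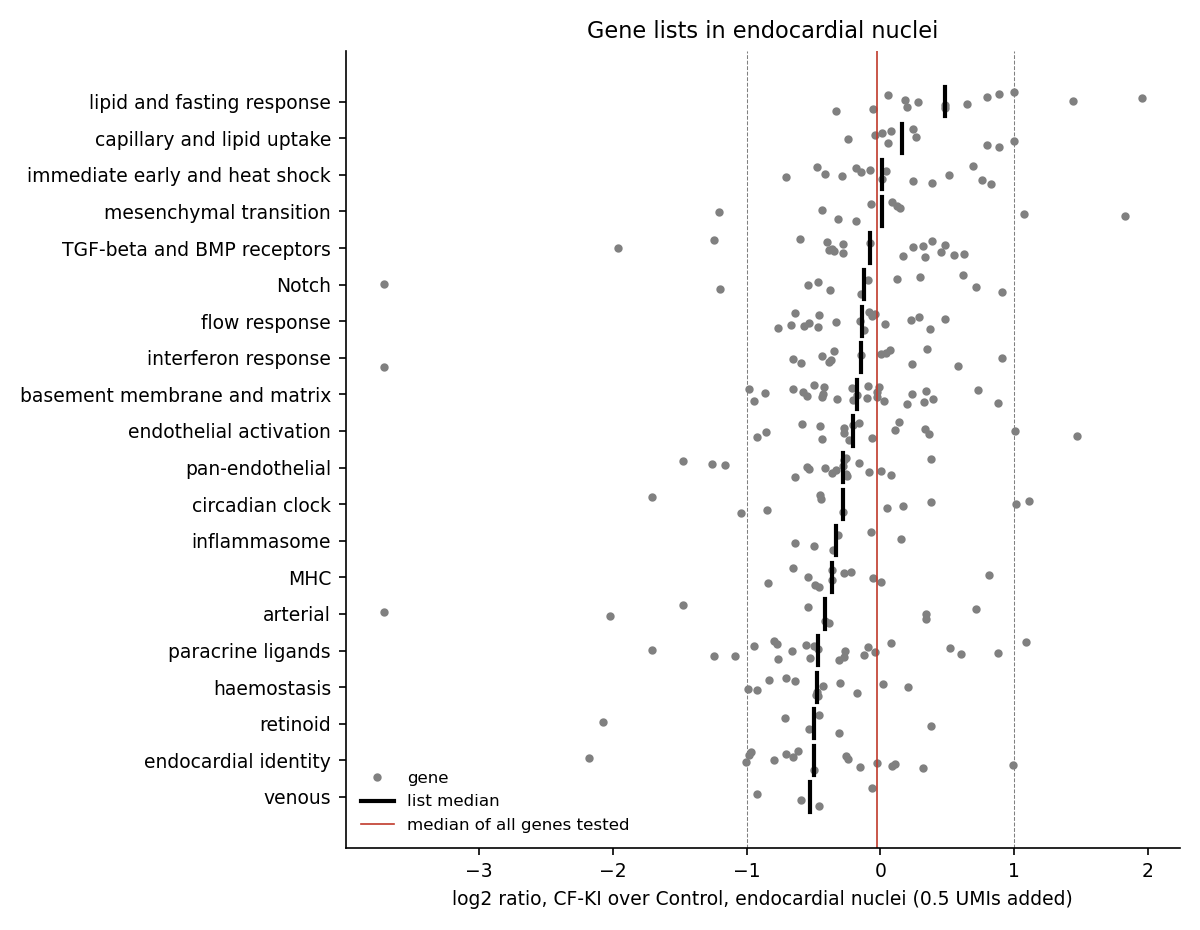
Log2 ratio of CF-KI over Control in endocardial nuclei with 0.5 UMIs added (horizontal axis) for the members of 20 lists with at least 20 UMIs, as grey points, with the list medians as black bars. The red line marks the median of all genes (-0.02) and the dashed lines 2-fold differences, and the lipid and fasting list has the highest median (0.48).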

How the data were processed

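Per the submitters' processing notes the authors made the deposited matrices with Cell Ranger 6.1.1 on mm10, and the values are raw UMI counts per gene and barcode. Of 32285 features, 99.8% matched GENCODE vM21 (GRCm38) by identifier, and features sharing a symbol were summed. The authors' cell calling settings and the use of strand are not given in the sources used here. The libraries held 15077 (CF-KI) and 11257 (Control) barcodes, of which 12598 and 10896 were kept.

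Counts of the chosen nuclei were summed per library and scaled to CPM of non-mitochondrial UMIs. Shares have exact binomial (Clopper-Pearson), levels exact Poisson and log2 ratios conditional exact binomial intervals, and differences square-and-add intervals, all at 95%. Counting error is all they cover. With 1 library per group no test was possible, so no p-value is given. On simulated counts of 2216 genes, of which 200 were changed, 96.6% of true ratios lay inside the interval. The simulated counts were independent, as the interval assumes, so this checks the calculation only. UMIs of a gene that lie together in a few nuclei, as those of Adamts8 did, were not simulated, and the intervals do not allow for them. List medians use genes with at least 20 UMIs and 0.5 UMIs added, and counts of 2-fold differences use ratios with nothing added. Free RNA was taken as the median ratio of the class to the whole library over 10 cardiomyocyte genes, and subtracted with the whole library's make-up and a floor of 3 UMIs, with no ratio where both libraries were at or under it. Sub-clusters came from scanpy 1.11.5 and leidenalg 0.10.2 (1000 variable genes, 15 components, resolution 0.6), TMM and median-of-ratios factors from edgeR and DESeq2, used for scaling only.

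Named genes are those of the rule; the 15 highest and 15 lowest ratios by the interval bound nearest 0 (at least 100 UMIs); the 15 highest and lowest over capillary and 8 over lymphatic nuclei by the smaller library ratio; the 10 largest differences between classes; and, per list, the 3 highest, 3 lowest and 3 most abundant members, of which some are printed. A gene under these rules is not reported here. Genes named beyond these were chosen after their values were seen. The members, gene lists and rules were chosen with earlier results of these data known. Alternatives were other limits on genes, mitochondrial RNA and markers, doublets, thinning, scaling, free RNA and list minimums. Alternatives added after the data were seen are at least 2 markers, the marker set without Vwf and Cytl1, and the nuclei without certain sub-clusters.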

Additional observations from a re-analysis of the deposited data

Results flagged for a closer look

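Barcodes over the mitochondrial limit were not used above. In CF-KI, 30 of 2369 such barcodes met the rest of the endocardial rule (1.27%, exact binomial interval 0.856 to 1.80). In the Control none of 300 did, which allows up to 1.0% (3 barcodes), and the exact binomial upper bound is 1.22%.

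Of 140 genes of the lists and rankings with at least 100 UMIs in both classes, leaving out those of the rule, 7 are given here for which the ratio of CF-KI over Control lay on opposite sides of 0 in endocardial and capillary nuclei, with both intervals clear of 0. Some of the 140 were ranked by the difference between the classes, and opposite sides were not counted over all genes. Of all 1706 genes compared in both classes, 3.17% had an endocardial ratio at least 1 higher and 1.23% at least 1 lower. These shares are another measure and give no background for the 7 of 140. The difference itself was not tested, since there is 1 library per group. The endocardial log2 ratio minus the capillary one was 1.38 for Lpl (1.00 and -0.38) and 1.62 for Ndufc2 (1.26 and -0.35), a subunit gene of respiratory complex I with 79 and 46 endocardial UMIs. It was 1.01 for Fabp4 (0.80 and -0.21) and 0.91 for Id1 (0.39 and -0.53). It was -1.11 for Mgp, -1.11 for Igfbp5 and -1.02 for Baz1b, a chromatin remodeller gene with 80 and 165 endocardial UMIs. In endocardial nuclei after subtraction of free RNA the ratios were -0.01 for Ndufc2, -0.03 for Mgp, -0.69 for Igfbp5, -0.47 for Baz1b and 0.69 for Id1, where the median of all genes was 0.24. No Lpl UMIs were left in either library, so it has no ratio there, and no CF-KI UMIs of Fabp4 were left. Without the group of 48 nuclei led by Nppc the ratio of Mgp was -0.16.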

How the results depend on the processing

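No paired analysis was possible because each group is 1 library, so the groups share only replicate number 1. For 11 results, 104 of 118 alternatives stayed within the counting interval of the reported value, for lists that of the gene or genes at the median. The other 14 moved further. For a list this interval is not the spread of the median, and it can be wide (-1.46 to 0.93 for activation). Staying inside it therefore says little about the lists. The alternatives without Scrublet doublets filtered CF-KI alone, since no Control barcode was called. Reversal was scored only where the counting interval was clear of 0, and none was found. The list medians of CF-KI over Control and the endocardial against capillary difference had intervals that spanned 0, so they could not be scored as reversed. After subtraction of free RNA the activation, flow and interferon medians turned from -0.20, -0.14 and -0.14 to 0.40, 0.18 and 0.16. The difference in the share of kept barcodes (-1.68 points) became -2.79 at a limit of 10% mitochondrial UMIs, -4.28 at 5%, -0.956 with at least 4 markers, -1.07 after thinning, -0.920 with at least 2 markers and -0.593 without Vwf and Cytl1. The difference in the endothelial share (-20.1 points) became -32.4, -35.6, -12.4 and -12.2 at 10%, at 5%, after thinning and with at least 2 markers. At 5% mitochondrial UMIs, which left 21 CF-KI nuclei, the medians of the flow, matrix and interferon lists became -0.969, -0.653 and -1.12. With free RNA subtracted that of the Notch list became 0.27, where the median of all genes was 0.24. Of the 20 list medians, 16 were below 0 as reported and 7 after that subtraction. Relative to all genes 16 were below as reported, and 13 of the 16 also after it. The medians after subtraction can rest on fewer members. No ratio was left for 9 of 27 matrix, 5 of 14 lipid and fasting and 4 of 10 mesenchymal transition genes. The all-gene shift from TMM was -0.03 and from median-of-ratios -0.01. Few UMIs limit genes such as Nlrp3, Hey1 and Ifit1, and the cause of the changes with the mitochondrial limit was not tested.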

Other observations

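Several groups of genes belong to no comparison above. Haemostasis genes were lower in CF-KI endocardial nuclei for 11 of 13 tested, with a median log2 ratio of -0.47. Mmrn2, a matrix gene of vessel walls, had 73 and 203 UMIs, a ratio of -0.99 (-1.40 to -0.60), against -0.36 in capillary nuclei. Ptgis, the prostacyclin synthase gene, had 29 and 73 UMIs, a ratio of -0.85 (-1.52 to -0.21), and Thbd, the thrombomodulin gene, 51 and 99, a ratio of -0.47. With free RNA subtracted the list stood at -0.12 relative to the median of all genes, against -0.45 as reported. MHC genes were lower for 10 of 12, with a median of -0.36 in endocardial and -0.52 in capillary nuclei. H2-T23 had 48 and 121 UMIs, a ratio of -0.85 (-1.36 to -0.36), H2-D1 234 and 460, a ratio of -0.49, and B2m 174 and 243, a ratio of 0.00.

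Clock genes had a median of -0.28 over 11 tested, with 2 at least 2-fold higher and 2 at least 2-fold lower, where 6.83% and 4.55% of all genes were. Dbp had 25 and 16 UMIs (log2 ratio 1.13, 0.16 to 2.13) and Nr1d1 32 and 22 (1.02, 0.20 to 1.88), and both were also higher in all barcodes, by 1.28 and 1.46. Hlf had 13 and 61 UMIs (-1.75, -2.74 to -0.87), against -0.25 in capillary nuclei and -0.39 in all barcodes, and Per1 had 23 and 67 UMIs (-1.06) against -1.09 in capillary nuclei. Retinoid genes had a median of -0.50 over 6 tested, with Rarg, a retinoic acid receptor gene, at 4 and 26 UMIs. The 9 arterial genes tested had a median of -0.42, the 4 venous genes one of -0.53 and the 6 inflammasome genes one of -0.33 (-0.02 without the 135 nuclei with genes of another type). The 10 genes of capillaries and lipid uptake had a median of 0.16. After subtraction of free RNA it was -1.61, but 2 of the 10 had no ratio then. That value includes genes such as Cd36 and Fabp4 with 0 CF-KI UMIs left, so no direction was read from it. Stmn2, an arterial list member, had 4 and 25 UMIs (-2.16), which was -0.59 without the group of 48 nuclei led by Nppc.

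Sums of the remaining marker lists in endocardial nuclei were 252 and 200 CPM for 6 lymphatic genes (Tbx1 at 0 in CF-KI), 638 and 726 for 6 atrial cardiomyocyte genes, 54.4 and 21.6 for 5 smooth muscle genes (Cnn1 at 0 in the Control), 129 and 107 for 5 mesothelial genes, 145 and 111 for 5 platelet genes, 88.6 and 57.6 for 4 Schwann cell genes (Kcna1 and Cadm2 at 0 in the Control) and 82.5 and 77.8 for 4 adipocyte genes, in CF-KI and Control.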
